A study of Mus musculus with 8 samples.

Results

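The genes described here are 37 genes of endothelial identity and angiogenic signalling, chosen by symbol as junction proteins, vascular transcription factors, VEGF ligands and receptors, angiopoietins and TIE receptors, vasoactive peptides and hypoxia-inducible factors. All 37 of the 37 had a probe set of their own on the array, among 19938 genes with such a probe set in all, and 36 of them passed the intensity filter and were tested. The pregnant group held 4 C57BL/6 uteri from females mated with stud males and collected on day 3 at 22 h, with the mating night as day 0; these uteri showed no blue dye reaction, and healthy blastocysts were flushed from them. The pseudopregnant group held 4 C57BL/6 uteri collected at the same hour from females mated with vasectomised males, so that they carried no embryos. The females of both groups were young virgins before mating, and their age in weeks is not given. Fertile or vasectomised mating is the only labelled difference, and an effect of the embryos cannot be told apart from an effect of the mating.

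Endothelial cells line blood and lymph vessels. VEGF ligands act on the receptors KDR, FLT1 and FLT4 to drive growth and permeability of vessels, and the angiopoietins act on the receptor TEK to steady or loosen them. In the mouse uterus, vessels beneath the epithelium become leaky where an embryo attaches, which is what the blue dye reaction shows, and new vessels form in the decidua afterwards. The labels name uterus and no separated cell type. A lower level of an endothelial gene can then mean a smaller share of endothelial cells or less of that RNA in each cell. These cannot be told apart.

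Values are log2 probe set intensities, and a difference is the pregnant mean minus the pseudopregnant mean on that log2 scale. Intensities of different probe sets are not compared. The defining endothelial markers were present: all 12 of the 12 listed markers, among them Pecam1, Cdh5 and Emcn, passed the filter, with means per array of 8.003 to 8.23 in the pregnant group and 8.24 to 8.36 in the pseudopregnant group. The 8 arrays had median intensities of 55.2 to 56.3, and arrays of a group correlated at 0.984 to 0.994. The array of pregnant replicate 2 stood apart, at -26.7 on the first principal component where its group otherwise lay at -6.6 to -4.9, and pseudopregnant replicate 1 lay at 20.3 where its group otherwise lay at 6.8 to 9.3. Pregnant replicate 2 was the lowest pregnant array for 23 of the 36 tested genes and the highest for 8. Markers of other cells moved between the groups. Over all 17494 tested probe sets, 1.41% were higher and 0.412% lower (limma, adjusted p under 0.05). Of the 8 macrophage markers 6 rose (C1qb by 0.56, Itgam by 0.35, Adgre1 by 0.62 and C1qc by 0.45 had the smallest p), and the means per array were 7.17 to 7.41 in pregnant and 6.89 to 6.95 in pseudopregnant uteri. Of the 5 tested NK cell markers 4 rose, Gzmb by 1.51, Il2rb by 1.10, Ncr1 by 0.99 and Prf1 by 0.42, and the means per array were 6.28 to 7.04 in pregnant and 5.35 to 5.96 in pseudopregnant uteri. Of the 7 tested markers of dividing cells 1 rose, Pcna, by 0.55, and the means per array were 7.78 to 8.30 in pregnant and 7.43 to 7.71 in pseudopregnant uteri. Their part in the differences below was not tested.

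Promoters are shown first, for 4 genes with small p-values, none of which had a limma adjusted p under 0.05. They are the 4 with the smallest p that RefSeq's promoter table for GRCm38.p6 holds, as 300 bases from 250 before to 50 after the first listed of 2 starts for Pgf, of 3 for Erg and the single start of the others, 5′ to 3′ on the gene's strand. Capitals mark AGGAAG, a core recognised by ETS factors such as ERG, ACAAT, a core recognised by SOX factors, and ACGTG or GCGTG, the cores of hypoxia response elements, each on either strand.

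Pgf, chr12:85177264-85177563, minus strand: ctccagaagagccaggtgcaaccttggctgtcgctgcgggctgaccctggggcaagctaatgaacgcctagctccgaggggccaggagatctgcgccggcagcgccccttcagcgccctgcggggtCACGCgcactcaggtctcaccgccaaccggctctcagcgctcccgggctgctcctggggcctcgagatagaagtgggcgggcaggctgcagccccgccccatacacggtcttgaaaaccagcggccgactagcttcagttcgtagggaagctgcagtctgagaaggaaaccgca
Tie1, chr4:118489800-118490099, minus strand: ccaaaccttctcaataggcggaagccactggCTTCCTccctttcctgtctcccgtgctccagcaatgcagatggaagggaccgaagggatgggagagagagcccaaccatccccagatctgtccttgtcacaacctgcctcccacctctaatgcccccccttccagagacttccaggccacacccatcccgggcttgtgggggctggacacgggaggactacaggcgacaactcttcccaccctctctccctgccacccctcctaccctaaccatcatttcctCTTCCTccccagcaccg
Erg, chr16:95586544-95586843, minus strand: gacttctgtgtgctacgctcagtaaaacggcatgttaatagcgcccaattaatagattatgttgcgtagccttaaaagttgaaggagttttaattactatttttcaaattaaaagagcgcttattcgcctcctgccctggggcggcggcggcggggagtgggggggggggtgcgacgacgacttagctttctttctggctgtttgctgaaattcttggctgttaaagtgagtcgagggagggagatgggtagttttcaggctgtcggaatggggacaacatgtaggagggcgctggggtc
Eng, chr2:32646345-32646644, plus strand: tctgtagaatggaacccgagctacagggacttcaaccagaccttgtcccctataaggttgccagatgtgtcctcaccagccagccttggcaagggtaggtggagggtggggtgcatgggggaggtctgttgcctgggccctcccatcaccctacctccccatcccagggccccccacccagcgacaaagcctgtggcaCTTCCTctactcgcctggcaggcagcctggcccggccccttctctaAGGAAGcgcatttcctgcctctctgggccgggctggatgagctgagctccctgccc

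The Tie1 window held the ETS core at positions -219 and 34, counted from the start, and the Eng window held it at -52 and -6. The Pgf window held a hypoxia core at -124, and the Erg window held none of these letters; no matches of different motifs overlapped. Of the 37 genes, 23 were in the promoter table, and Sox18, the gene with the smallest p, was not among them. The ETS core stood in 9 of these 23 (39.1%), against 35.1% of 27025 promoters of the same length, the SOX core in 5 (21.7%), against 31.6%, and a hypoxia core in 11 (47.8%), against 43.8%. A match is a run of letters and says nothing of binding.

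Among the 36 tested genes, 0 passed the threshold (limma, adjusted p under 0.05), where 1.41% of the 17494 probe sets tested were higher and 0.412% were lower. The differences were small and mostly of one sign. In 29 of the 36 the difference was below 0, and the median was -0.11, against 0.0019 over all probe sets, of which 49.4% lay below 0. The means per array over the 36 genes overlapped, at 7.49 to 7.60 in pregnant and 7.59 to 7.67 in pseudopregnant uteri. At an unadjusted limma p under 0.05, 10 of 36 (27.8%) were lower, against 9.43% of all probe sets, and 1 (2.78%) was higher, against 14.3%. The 10 were Sox18, Tie1, Erg, Eng, Nos3, Vwf, Ramp2, Flt1, Cdh5 and Robo4, and the 1 was Pgf. The 4 pregnant arrays all lay below the 4 pseudopregnant arrays for 8 genes (22.2%), where 5.38% of all probe sets did so, and above them for 1 (2.78%), where 9.23% did. These genes were read on the same 8 arrays and are not 36 separate observations. They were chosen with earlier results of these data known. Without pregnant replicate 3 the count of lower genes at an unadjusted p was 5, and it was 4 without the outlying arrays, pregnant replicate 2 and pseudopregnant replicate 1. The median difference stayed between -0.13 and -0.07 when single arrays were left out, and was nearest to 0 without pregnant replicate 2.

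**Figure D1:**
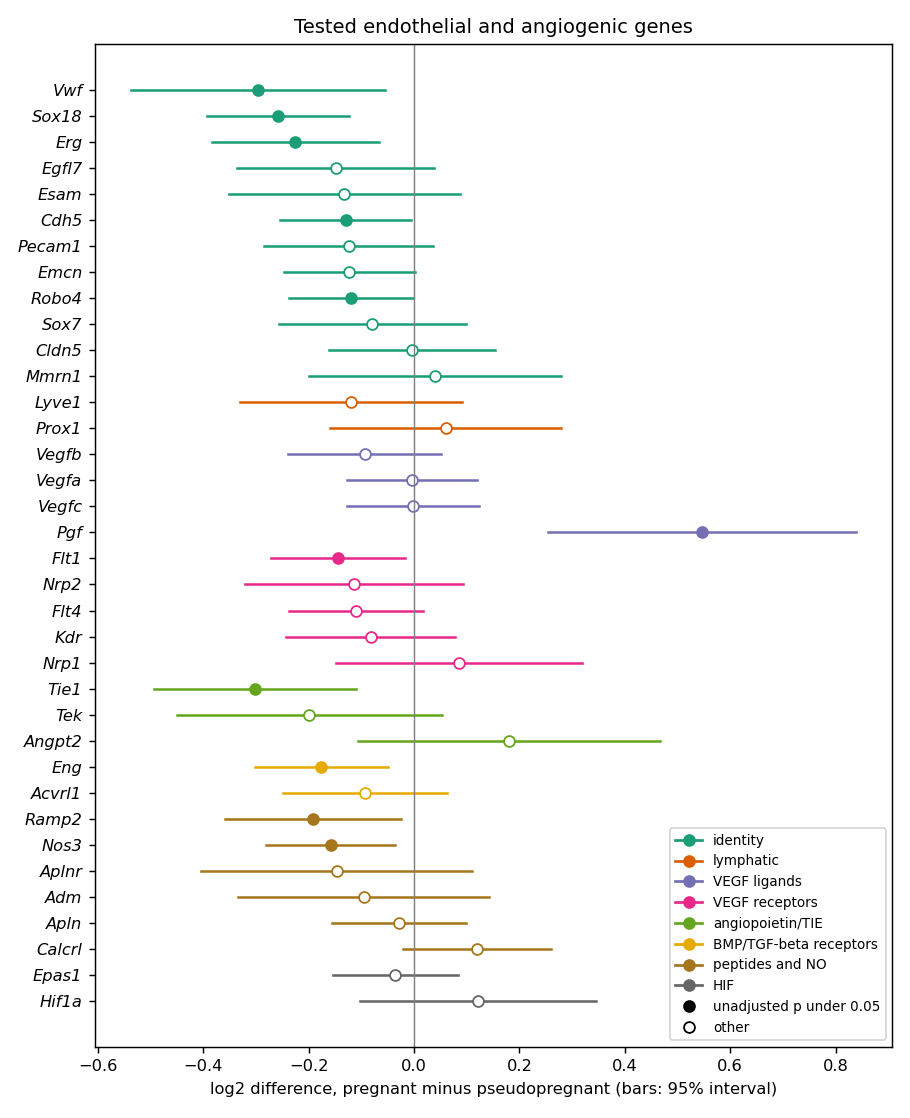
The log2 difference (pregnant minus pseudopregnant) of each of the 36 tested genes, as points with 95% limma intervals along the horizontal axis and coloured by role, with filled points at an unadjusted p under 0.05. Vwf, Sox18, Tie1 and most identity and receptor genes lie left of 0, and Pgf lies apart on the right at 0.55.

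Of the 12 endothelial identity genes 11 had differences below 0, with a median of -0.13. At an unadjusted limma p under 0.05, 5 of the 12 were lower, against 9.43% of all probe sets. Sox18, a transcription factor of vascular and lymphatic development, had 7.29, 7.20, 7.34 and 7.44 in pregnant uteri and 7.55, 7.56, 7.65 and 7.54 in pseudopregnant uteri. The groups did not overlap, and the difference was -0.26 ± 0.060 (SE, limma adjusted p = 0.058), or -16.4% on the linear scale. It lay close to the threshold and passed it under 6 of 19 alternative settings (adjusted p 0.039 to 0.16), among them each array centred on its median (0.046). Erg, the ETS factor that maintains endothelial identity, had 7.01, 6.69, 6.92 and 6.94 in the pregnant group and 7.16, 7.12, 7.07 and 7.11 in the pseudopregnant group, with no overlap. Its difference was -0.23 ± 0.071 (SE, adjusted p = 0.10), and -0.16 without pregnant replicate 2, the lowest array.

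Vwf, the platelet-binding glycoprotein that endothelium stores and releases, had 7.85, 7.53, 7.58 and 7.86 in the pregnant group and 7.97, 7.76, 8.08 and 8.20 in the pseudopregnant group. Pregnant replicates 1 and 4 lay above pseudopregnant replicate 2, and the difference was -0.30 ± 0.11 (SE, adjusted p = 0.14). Cdh5, the cadherin of endothelial junctions, had 9.47, 9.38, 9.45 and 9.45 in the pregnant group and 9.62, 9.52, 9.48 and 9.65 in the pseudopregnant group. The groups were separated by a gap far smaller than their spread, and the difference was -0.13 ± 0.056 (SE, adjusted p = 0.19). Pecam1, a junctional adhesion molecule, had 8.41, 8.27, 8.43 and 8.54 in the pregnant group and 8.42, 8.48, 8.59 and 8.64 in the pseudopregnant group. These overlapped, with a difference of -0.12 ± 0.072 (SE, adjusted p = 0.32) that was -0.08 without pregnant replicate 2.

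The other identity and lymphatic genes are given by their group means. Emcn, a sialomucin of venous and capillary endothelium, averaged 9.49 ± 0.026 in pregnant and 9.62 ± 0.087 in pseudopregnant uteri (SD, n = 4 each), without overlap (adjusted p = 0.22, limma). Robo4, a receptor that stabilises vessels, averaged 7.38 ± 0.041 in pregnant and 7.503 ± 0.067 in pseudopregnant uteri (SD, n = 4 each; adjusted p = 0.21, limma). Egfl7, a secreted endothelial factor, averaged 8.52 in pregnant and 8.67 in pseudopregnant uteri (difference -0.15, 95% interval -0.34 to 0.04). Esam, a junctional molecule, averaged 8.38 in pregnant and 8.52 in pseudopregnant uteri (-0.13, -0.35 to 0.09), and the transcription factor Sox7 averaged 6.73 in pregnant and 6.81 in pseudopregnant uteri (-0.08, -0.26 to 0.10). Their adjusted p lay between 0.31 and 0.57 (limma). Pregnant replicate 2 was the lowest pregnant array for all 3 and far below its group for Esam, at 8.07. Leaving it out gave differences of -0.09 for Egfl7, -0.03 for Esam and -0.0087 for Sox7, and leaving out pseudopregnant replicate 3 gave -0.08 for Egfl7 and -0.04 for Sox7. Cldn5, the tight junction claudin of endothelium, averaged 8.06 in pregnant and 8.07 in pseudopregnant uteri, a difference of -0.0037 (-0.16 to 0.15). Mmrn1, a matrix protein of lymphatic endothelium and platelets, averaged 6.48 in pregnant and 6.44 in pseudopregnant uteri (0.04, -0.20 to 0.28). The 2 lymphatic genes overlapped between the groups. Prox1, the factor that sets lymphatic fate, averaged 5.34 in pregnant and 5.28 in pseudopregnant uteri (0.06, -0.16 to 0.28) and lay below the filter line on 2 arrays. Lyve1, a hyaluronan receptor that macrophages also carry, averaged 7.39 in pregnant and 7.51 in pseudopregnant uteri (-0.12, -0.33 to 0.09), and its difference ran from -0.20 without pregnant replicate 2 to -0.06 without pregnant replicate 3.

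**Figure D2:**
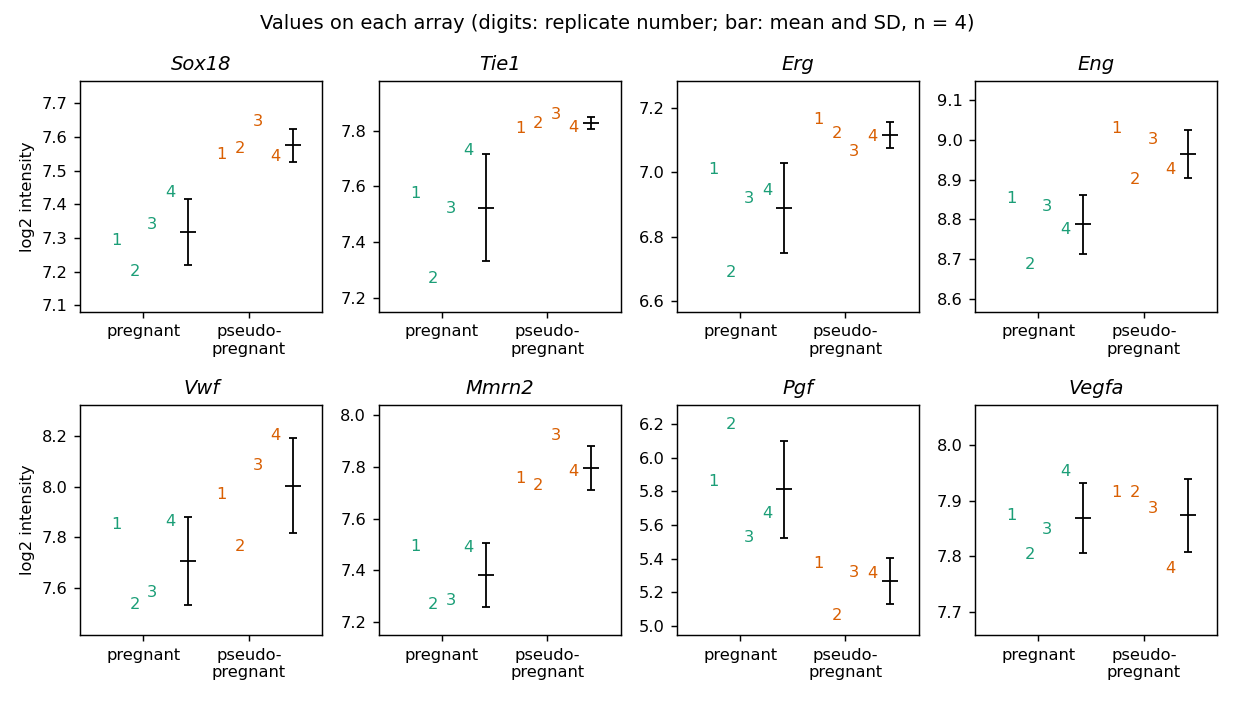
Log2 intensity of 8 genes on each array, pregnant left and pseudopregnant right, with digits for the replicate and bars for the mean and SD (n = 4). The groups are separate for Sox18, Tie1, Erg, Eng, Mmrn2 and Pgf, and overlap for Vwf and Vegfa.

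Among the 4 VEGF ligands, Pgf stood apart. Pgf encodes placental growth factor, which binds FLT1 and not KDR. It had 5.86, 6.19, 5.53 and 5.67 in pregnant uteri and 5.37, 5.06, 5.32 and 5.31 in pseudopregnant uteri. Every pregnant array lay above every pseudopregnant array, and the difference was 0.55 ± 0.13 (SE, limma adjusted p = 0.059), or 46.1% on the linear scale. Without pregnant replicate 2, the highest array, it was 0.42 (adjusted p = 0.078), and without pregnant replicate 3, the lowest pregnant array, it was 0.64 and passed (adjusted p = 0.049). Its intensity was near the filter line, the 40th percentile of each array, which lay between 5.23 and 5.32, and pseudopregnant replicate 2 lay below it, so the size is not exact. Vegfa, the main ligand of KDR, had 7.87, 7.80, 7.85 and 7.95 in the pregnant group and 7.91, 7.92, 7.89 and 7.78 in the pseudopregnant group. The groups overlapped throughout, with a difference of -0.0041 and a 95% interval of -0.13 to 0.12. Vegfc, the lymphatic ligand, averaged 5.39 in both groups (-0.0017, -0.13 to 0.12). Vegfb, a FLT1 ligand, averaged 7.80 in pregnant and 7.89 in pseudopregnant uteri (-0.09, -0.24 to 0.05), with a difference of -0.05 without pregnant replicate 3.

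Of the 5 VEGF receptors and coreceptors 4 had differences below 0, with a median of -0.11. Flt1, which binds VEGFA and PGF and in soluble form traps them, had 7.58, 7.48, 7.56 and 7.65 in pregnant uteri and 7.66, 7.73, 7.80 and 7.66 in pseudopregnant uteri. The highest pregnant and the lowest pseudopregnant arrays nearly met, and the difference was -0.14 ± 0.057 (SE, limma adjusted p = 0.17). Kdr, the main signalling receptor for VEGFA, had 7.57, 7.30, 7.43 and 7.49 in the pregnant group and 7.43, 7.53, 7.66 and 7.51 in the pseudopregnant group. These overlapped, and the difference was -0.08 (-0.24 to 0.08), or -0.03 without pregnant replicate 2 and -0.04 without pseudopregnant replicate 3. Flt4, the VEGFC receptor, averaged 6.39 in pregnant and 6.50 in pseudopregnant uteri (-0.11, limma adjusted p = 0.27). The coreceptor Nrp2 averaged 7.34 in pregnant and 7.46 in pseudopregnant uteri (-0.11, 0.48), and Nrp1 averaged 8.11 in pregnant and 8.02 in pseudopregnant uteri (0.09, 0.65). Pregnant replicate 2 was far below its group for Nrp2, at 7.12, and leaving it out gave a difference of -0.04. The Nrp1 difference ran from 0.02 without pregnant replicate 4 to 0.19 without pregnant replicate 2.

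In the angiopoietin system the orphan receptor Tie1, which modulates TEK, had 7.58, 7.27, 7.52 and 7.73 in pregnant uteri and 7.81, 7.83, 7.86 and 7.81 in pseudopregnant uteri. The 4 pseudopregnant arrays lay within a narrow band above all pregnant arrays, which were spread out, and the difference was -0.30 ± 0.086 (SE, limma adjusted p = 0.083), or -18.9% on the linear scale. Under 19 alternatives its adjusted p lay between 0.061 and 0.18, and without pregnant replicate 2 its difference was -0.22. Tek, the angiopoietin receptor, had 8.72, 8.11, 8.52 and 8.47 in the pregnant group and 8.54, 8.68, 8.76 and 8.63 in the pseudopregnant group. Only pregnant replicate 2 stood far below the rest, and the difference of -0.20 ± 0.11 (SE, adjusted p = 0.31) was -0.08 without that array. Angpt2, the ligand that destabilises vessels, had 5.29, 5.94, 5.71 and 5.60 in the pregnant group and 5.31, 5.35, 5.51 and 5.66 in the pseudopregnant group. The groups overlapped, the difference was 0.18 ± 0.13 (SE, adjusted p = 0.42), and it was 0.08 without pregnant replicate 2, the highest array. Angpt1, the stabilising ligand, had 4.98, 5.08, 4.85 and 4.86 in the pregnant group and 4.35, 4.76, 4.54 and 4.75 in the pseudopregnant group. Every array was below the 40th percentile, so it was not tested and the size of its difference of 0.34 is not exact; with no filter its adjusted p was 0.14.

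Eng, a coreceptor for BMP9 and TGF-beta on endothelium, had 8.85, 8.69, 8.83 and 8.78 in pregnant uteri and 9.03, 8.90, 8.999 and 8.92 in pseudopregnant uteri. The groups did not overlap, and the difference was -0.18 ± 0.057 (SE, limma adjusted p = 0.11), or -11.5% on the linear scale. Its partner receptor Acvrl1 averaged 7.52 in pregnant and 7.61 in pseudopregnant uteri (-0.09, -0.25 to 0.06), and its difference was -0.05 without pregnant replicate 2. Nos3, the endothelial nitric oxide synthase, had 6.91, 6.73, 6.85 and 6.89 in the pregnant group and 7.01, 6.98, 6.98 and 7.05 in the pseudopregnant group. Every pregnant array lay below every pseudopregnant array, with a difference of -0.16 ± 0.055 (SE, adjusted p = 0.13).

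The adrenomedullin receptor is formed by Calcrl with Ramp2. Ramp2 had 7.94, 7.83, 7.68 and 8.03 in the pregnant group and 8.09, 8.10, 7.995 and 8.06 in the pseudopregnant group. Only pregnant replicate 4 reached the pseudopregnant range, and the difference was -0.19 ± 0.075 (SE, limma adjusted p = 0.16). Calcrl had a difference of the other sign, with means of 8.58 in pregnant and 8.46 in pseudopregnant uteri (0.12, -0.02 to 0.26), or a difference of 0.07 without pregnant replicate 4. The peptide Adm averaged 6.07 in pregnant and 6.17 in pseudopregnant uteri (-0.10, -0.33 to 0.14), and its difference ran from -0.17 without pseudopregnant replicate 2 to -0.0064 without pseudopregnant replicate 3. The vascular peptide Apln averaged 6.07 in pregnant and 6.09 in pseudopregnant uteri (-0.03, -0.16 to 0.10), and its receptor Aplnr averaged 8.94 in pregnant and 9.08 in pseudopregnant uteri (-0.15, -0.40 to 0.11). The Aplnr difference ran from -0.23 without pseudopregnant replicate 2 to -0.06 without pregnant replicate 2, and that of Apln was -0.0063 without pregnant replicate 2. The hypoxia-inducible factors overlapped between the groups. Epas1, the form abundant in endothelium, averaged 8.78 in pregnant and 8.81 in pseudopregnant uteri (-0.04, -0.15 to 0.08), and Hif1a, the widely expressed form, averaged 9.58 in pregnant and 9.46 in pseudopregnant uteri (0.12, -0.10 to 0.34). Without pregnant replicate 2 the differences were -0.0096 for Epas1 and 0.035 for Hif1a.

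**Figure D3:**
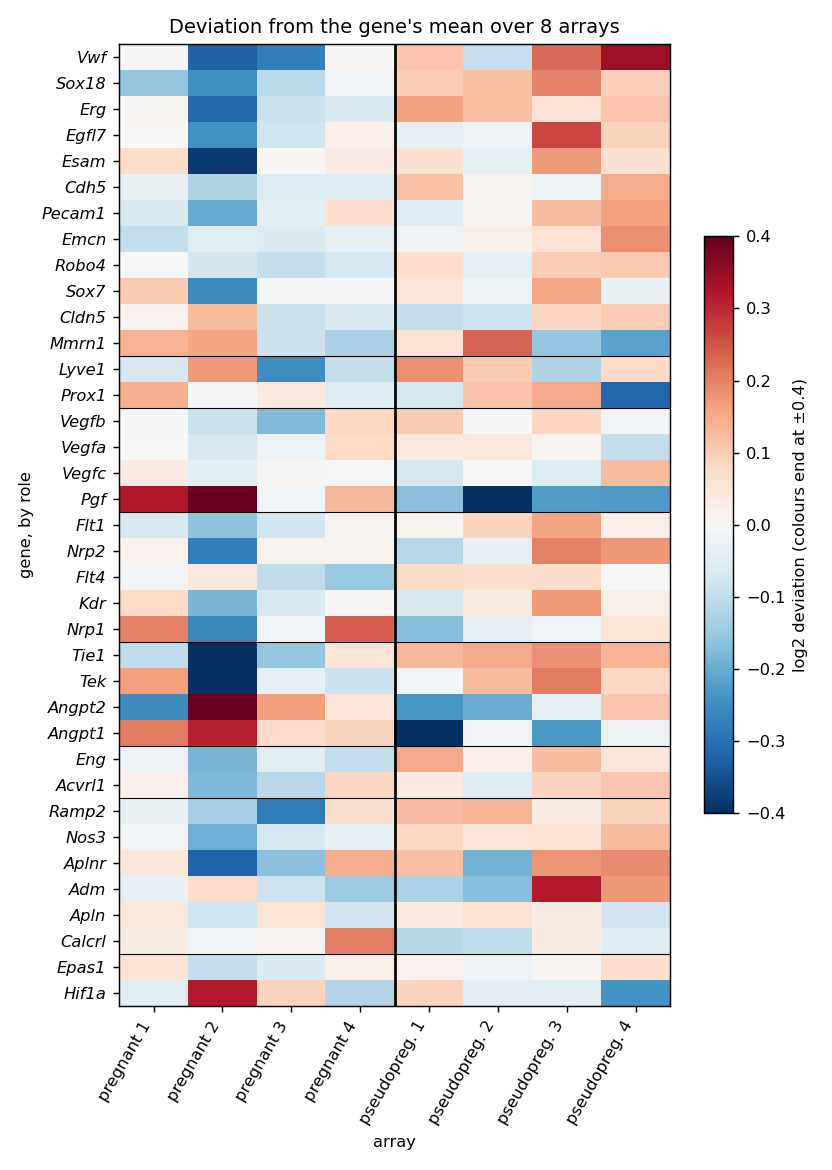
Deviation of each of the 37 genes from its own mean over 8 arrays, in log2 units, with the 4 pregnant arrays left of the line and the 4 pseudopregnant arrays right of it, and genes grouped by role. Pregnant replicate 2 is the lowest pregnant array for 23 of the 36 tested genes. It is the highest pregnant array for 8, among them Pgf, Angpt2, Hif1a, Cldn5 and Lyve1.

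Further vascular genes were followed in lists outside the 37. Of 20 other pan-endothelial genes, 1 fell, Mmrn2, where 0.412% of all probe sets fell, and the median difference was -0.07. Mmrn2, a matrix protein of endothelium that holds VEGF, had 7.49, 7.27, 7.28 and 7.49 in pregnant uteri and 7.75, 7.73, 7.92 and 7.78 in pseudopregnant uteri. The groups were well apart, with a difference of -0.41 ± 0.073 (SE, limma adjusted p = 0.030), or -24.8% on the linear scale. This call ended whichever array was left out (adjusted p 0.05003 to 0.075), while the difference stayed between -0.45 and -0.37, and it also ended with no filter (0.059). At an unadjusted limma p under 0.05, 3 of the 20 were lower, against 9.43% of all probe sets, and 1 was higher, against 14.3%.

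In the arterial, venous and lymphatic list 0 of 13 tested genes passed (limma, with 1 higher and 2 lower at an unadjusted p), and the smallest p-values were those of Pdpn, a lymphatic and stromal glycoprotein, at 0.25 (adjusted p = 0.056), and the semaphorin Sema3g, at -0.18 (0.18). In the Notch and tip cell list 0 of 12 passed (2 higher and 1 lower at an unadjusted p), led by the Notch ligand Dll1 at -0.21 (adjusted p = 0.091) and the chemokine receptor Cxcr4 at 0.20 (0.18). Among 26 other angiogenic ligands, receptors and inhibitors 0 passed (5 higher and 2 lower at an unadjusted p), led by the CXCL12 scavenger Ackr3 at 0.42 (adjusted p = 0.068) and caveolin Cav1 at 0.19 (0.070). Of 17 tested hypoxia-induced and oxygen-sensing genes 0 passed (3 higher and 1 lower at an unadjusted p), and Ldha, a glycolytic enzyme, at 0.26 just missed (adjusted p = 0.0503), followed by the glycolytic enzyme Pgk1 at 0.27 (0.13). The medians of these 4 lists were -0.05, 0.01, 0.06 and 0.05. Over all probe sets, 14.3% were higher and 9.43% lower at an unadjusted limma p under 0.05, and counts in lists this short are read against those shares.

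Markers of the cells that surround or touch vessels were set beside them. Of 9 tested pericyte markers 0 passed (3 higher and 0 lower at an unadjusted p), with a median of -0.06 and means per array of 7.32 to 7.54 in pregnant and 7.36 to 7.56 in pseudopregnant uteri; Rgs5 was at 0.41 (limma adjusted p = 0.079) and Pdgfrb at 0.25 (0.12). Of 7 smooth muscle markers 0 passed (limma, 1 lower at an unadjusted p), led by Myh11 at -0.22 (adjusted p = 0.070) and Des at 0.25 (0.24). Of 7 stromal markers 0 passed (0 at an unadjusted p), led by Col3a1 at 0.13 (0.28) and Dcn at 0.07 (0.42). Of 6 epithelial markers 0 passed (1 higher and 1 lower at an unadjusted p), led by Krt7 at 0.27 (0.14) and Krt19 at -0.46 (0.15). The medians were 0.09, 0.08 and -0.10, and the means per array overlapped between the groups in each of these lists. Platelet and mesothelial markers, 4 tested of each, had medians of -0.09 and 0.01, led by Itga2b at -0.17 (limma adjusted p = 0.25) and Gp9 at -0.11 (0.36), and by Lrrn4 at -0.10 (0.83) and Upk3b at 0.03 (0.94). With the red blood cell gene Alas2 at -0.12 (0.34), 0 of them passed, or had an unadjusted p under 0.05. At that limma p, 14.3% of all probe sets were higher and 9.43% lower.

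**Figure D4:**
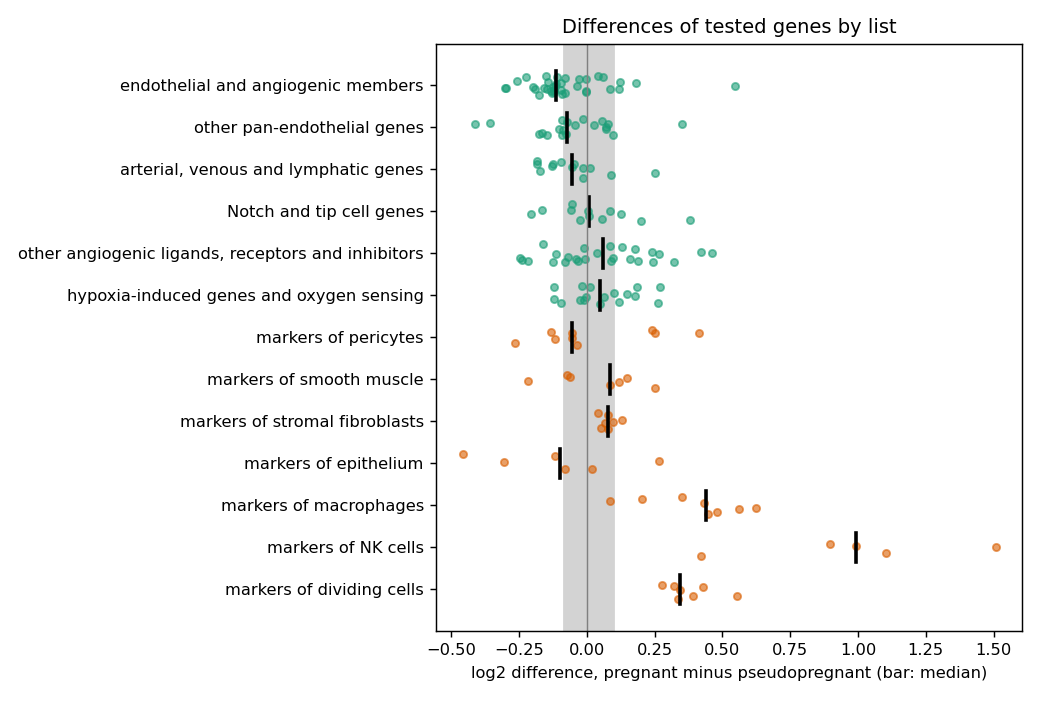
Log2 differences (pregnant minus pseudopregnant) of the tested genes of each list, a point per gene and a bar at the median, with the interquartile range of all 17494 probe sets shaded. The endothelial and angiogenic genes centre on -0.11 and the epithelial markers on -0.10, both left of the shading. The medians of the macrophage (0.44), NK cell (0.99) and dividing cell (0.35) markers lie right of it.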

How the data were processed

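The labels call each of the 8 arrays a biological replicate of mouse uterus. Each deposited value is an intensity of a probe set, on the linear scale, which the authors made with RMA, per the submitters' processing notes. The software, its version and further steps are not given here. RMA makes array distributions alike and compresses changes near background. From these, log2 was taken. The 6612 lowest identifiers, which carry no gene, were left out as controls, and the filter asked for an intensity above the array's 40th percentile on 4 or more of the 8 arrays, which 17494 of 28944 probe sets met. Symbols come from the platform's gene table. Each of the 37 genes had a single probe set. For a gene of another list with several probe sets, the brightest was used.

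The comparison used limma 3.58.1 (lmFit, then eBayes) under R 4.3.3, two-sided, with Benjamini-Hochberg adjustment over all 17494; "rose" and "fell" mean an adjusted p under 0.05. The number of arrays, 4 a group, limits precision. Promoters are RefSeq's. Of 162 genes in other lists, 152 were matched on the array.

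The genes and lists were chosen with earlier results of these data known. Values on every array are given for the 10 genes with the smallest p and for Vegfa, Kdr, Flt1, Angpt1, Angpt2, Tek, Pecam1 and Cdh5. From other lists the genes past the threshold, up to 4, or else the 2 with the smallest p were named. Vegfd was named besides these. Alternatives changed the filter, the scaling, the log scale, the variance model and the arrays used. Matplotlib 3.10.9 in Python 3.11.15 drew the figures.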

Additional observations from a re-analysis of the deposited data

Results flagged for a closer look

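In groups of 4 arrays, a value was picked out where its gap to the nearest other array, as a share of the group's range, exceeded Dixon's 95% critical value; 76 groups were examined and chance picks about 1 in 20. There were 3 such values. Esam was 8.0678 in pregnant replicate 2, against 8.46 to 8.52 on the other pregnant arrays. Nrp2 was 7.1225 in pregnant replicate 2, against 7.41 to 7.42 on the other pregnant arrays. Flt4 was 6.4466 in pseudopregnant replicate 4, against 6.52 on each of the other pseudopregnant arrays.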

How the results depend on the processing

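Precision is limited by 4 arrays a group and, for Pgf, Angpt1, Angpt2, Prox1 and Vegfc, by intensities near the filter line. The count of tested endothelial and angiogenic genes past the threshold, 0, became 1 with the stricter filter, median centring, repeated quantile normalization, cyclic loess or array weights (Sox18 each time) and 2 with the trended, robust variance model (Sox18 and Pgf); without single arrays it was 0 to 1 (Pgf, without pregnant replicate 3). At an unadjusted p, the lower count of 10 was 5 to 9 without single arrays and 4 without both outlying arrays (added once the data had been seen). The higher count of 1 was 1 to 2 without single arrays and 0 with the stricter filter, where Pgf was not tested. The 319 calls over all probe sets became 54 with no filter, 708 with the trended model, 48 without both outlying arrays and 40 to 235 without single arrays. Same-numbered arrays deviated from their group means with correlations of -0.10 to 0.24, and differently numbered arrays with correlations of -0.21 to 0.14. The labels do not say whether a number marks a shared day or batch, and 4 arrays a group are too few to settle it. With the replicate number as a block, the calls over all probe sets were 174, and the count for the other pan-endothelial genes was 0 (Mmrn2, adjusted p = 0.056). That count, 1, was also 0 with no filter, without both outlying arrays, and 0 to 0 without single arrays. The other angiogenic list gave 2 with the replicate block and 1 with the trended model; the arterial, venous and lymphatic list and the hypoxia list each gave 1 with the stricter filter, log2(intensity + 16), the trended model and array weights. Differences near 0 changed sign. Without single arrays Cldn5 ran from -0.0468 to 0.0294, Mmrn1 from -0.025 to 0.1245, Prox1 from -0.0351 to 0.12, Vegfa from -0.0361 to 0.0181 and Vegfc from -0.0245 to 0.0393. Vegfa was 0.0087 with array weights and 0.0317 without both outlying arrays, Vegfc 0.0283 with repeated quantile normalization, 0.0438 with cyclic loess and 0.0032 with array weights, and Apln 0.0019 without both outlying arrays. The causes were not tested. With the block, 7 of the 36 tested genes were lower at an unadjusted p, and the count past the threshold stayed at 0.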
